A study of Mus musculus with 6 samples.

Results

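The AP-1 transcription factor genes Fos, Fosb, Fosl1, Fosl2, Jun, Junb, Jund and Atf3, with Egr1 and Ier2, are 10 immediate early genes of the 27666 gene names on the arrays. They were taken as a named list, by the gene name of each probe. Jund carries its older name Jund1 in the scanner files and was added through its RefSeq accession. The list has 13 probes of 41174, and all 10 genes passed the filter on dim probes. It was selected on results of these arrays, namely the log2 differences between Thoc5 siRNA and the control, so values in that comparison are a description and carry no test here.

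The study set out, by its title, to ask how the THO complex governs export of pluripotency mRNAs. The cells were of the J1 line of mouse embryonic stem cells, grown in ESGRO medium but transfected in M10. Cells received siRNA against Thoc2, siRNA against Thoc5, or, as the control (NT), siRNA with no target. Total RNA was taken 96 hours later and hybridised to 6 single-colour (Cy3) Agilent arrays, 2 for each siRNA. Since total RNA mixes nuclear with cytoplasmic transcripts, neither export nor protein was measured, and fewer cells with an mRNA cannot be told apart from less of it in each cell. Whether the replicates came from separate cultures is not stated in the labels, so errors and p-values cover the spread between arrays only.

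Immediate early genes are transcribed soon after a signal reaches a cell, without the need for new protein. Proteins of the Fos family (Fos, Fosb, Fosl1, Fosl2) pair with proteins of the Jun family (Jun, Junb, Jund) through leucine zippers to form AP-1, and Atf3, a stress-induced member of the ATF family, can join Jun as well. Egr1 is a zinc finger factor switched on through ERK kinases and serum response factor. THOC5, a subunit of THO, has been linked to export of immediate early mRNAs, which is one reason for looking at this family here. The list was nonetheless chosen with results of these arrays known.

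Promoters of Jun and Atf3, both at higher levels after Thoc5 siRNA, are shown beside that of Fos, which was not. The sequences are the 250 bases before each gene's start in RefSeq's table for GRCm38.p6, at chr4:95052223-95052472 (minus strand), chr1:191183334-191183583 (minus strand) and chr12:85473640-85473889 (plus strand). Capitals mark matches to TGANNTCA, an AP-1 and ATF type of site, or TGACG, the core of a cyclic AMP response element, on either strand.
Jun: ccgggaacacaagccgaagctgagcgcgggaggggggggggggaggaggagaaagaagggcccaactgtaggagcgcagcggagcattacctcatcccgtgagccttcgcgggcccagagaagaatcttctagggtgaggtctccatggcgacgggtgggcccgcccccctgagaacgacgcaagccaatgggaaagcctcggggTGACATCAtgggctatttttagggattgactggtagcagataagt
Atf3: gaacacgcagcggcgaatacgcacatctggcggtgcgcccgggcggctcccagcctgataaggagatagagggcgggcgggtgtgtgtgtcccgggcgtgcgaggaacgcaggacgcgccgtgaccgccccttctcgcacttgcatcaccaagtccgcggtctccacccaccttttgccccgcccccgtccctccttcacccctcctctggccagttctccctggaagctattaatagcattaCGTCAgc
Fos: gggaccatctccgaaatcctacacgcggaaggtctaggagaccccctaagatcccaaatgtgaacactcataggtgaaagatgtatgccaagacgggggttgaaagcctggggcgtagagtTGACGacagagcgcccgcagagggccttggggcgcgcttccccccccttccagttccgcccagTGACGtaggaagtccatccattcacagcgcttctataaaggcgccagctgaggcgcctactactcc

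The table held promoters of 7 of the 10 genes, each from 250 bases before to 50 after the start. In Jun, TGACATCA begins 45 bases before the start and a further match to TGANNTCA lies just after it. In Atf3 TGACG lies on the opposite strand and begins 7 bases before the start, while Fos has it at 129 and 66 bases. Fosb and Junb hold 1 TGACG each, Jund holds 1 TGANNTCA (TGAAATCA), and the Fosl2 window matched none of the motifs searched. Among 32851 promoters of that length, TGANNTCA was in 14.1% and TGACG in 20.8%; the motifs can overlap each other. The shorter AP-1 site TGANTCA, in 7.81% of promoters, and the CArG box of serum response factor, in 1.63%, were in none of the 7 windows. Sites further than 250 bases before the start were not searched, and Fosl1, Egr1 and Ier2 had no window. The promoters may thus hold such sites elsewhere. A match is only a stretch of letters, and no binding was measured.

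Arrays had 43379 non-control spots. The signal at its 75th percentile was 306 on replicate 1 of Thoc5 siRNA and 716 to 905 on the other arrays, and replicate 1 of Thoc2 siRNA had 880 spots flagged as outliers against 63 to 155. Replicate 1 of Thoc2 siRNA was also the only array scanned on a different day. It had 79.7% of spots well above background, against 56.7% to 73.3% on the others. The part of this in the Thoc2 values was not tested. Correlation across genes was 0.966, 0.965 and 0.976 between replicates (NT, Thoc2, Thoc5) and 0.954 to 0.975 between arrays of different siRNAs. Thoc2 mRNA stood at 55% of its NT mean with its own siRNA, and Thoc5 mRNA at 41.4% with its own. All 9 measured markers of pluripotent cells, Pou5f1, Sox2 and Nanog among them, were well above background on every array. A further listed one, Fgf4, did not pass the filter. Of the fibroblast or feeder markers Twist2, Lum and Col5a2 did not pass the filter, and Col3a1 was not well above background on either NT array. Of the 10 that were measured, 8 were well above background on both NT arrays, 10 on both Thoc2 arrays and 7 on both Thoc5 arrays.

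Fosl1, Atf3 and Jun were higher on both Thoc5 arrays than on every other array, Egr1 was lower on both Thoc5 arrays than on every other array, and the brighter of 2 Ier2 probes was also highest there, by 0.54 ± 0.52 over NT. Thoc5 siRNA stood against NT at 2.98-fold for Fosl1, 2.60-fold for Atf3 and 2.24-fold for Jun, and at 61.3% for Egr1. With Thoc2 siRNA the same genes were at 1.19-fold, 76.1%, 1.25-fold and 94.7%. Normexp background correction is another way to subtract background from the raw signal. With it the log2 differences from NT, in the same order, were 1.02, 0.28, 0.95 and -0.22 with Thoc2 siRNA. With Thoc5 siRNA they were 1.42, 1.195, 1.27 and -0.93. Levels below are log2 of the processed signal minus the array's 75th percentile. They compare arrays for 1 probe and do not rank genes, since probes differ in brightness. Before that scaling, the signals of Fosl1, Jun and Atf3 on Thoc5 replicate 1 were 76.7, 58.2 and 161. On NT replicate 1 they were 87.6, 82.6 and 209, and on NT replicate 2 they were 72.6, 83.7 and 152. Their higher levels on Thoc5 replicate 1 thus rest on dividing by its 75th percentile of 306. On Thoc5 replicate 2 the signals were 225, 183 and 407.

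**Figure D1:**
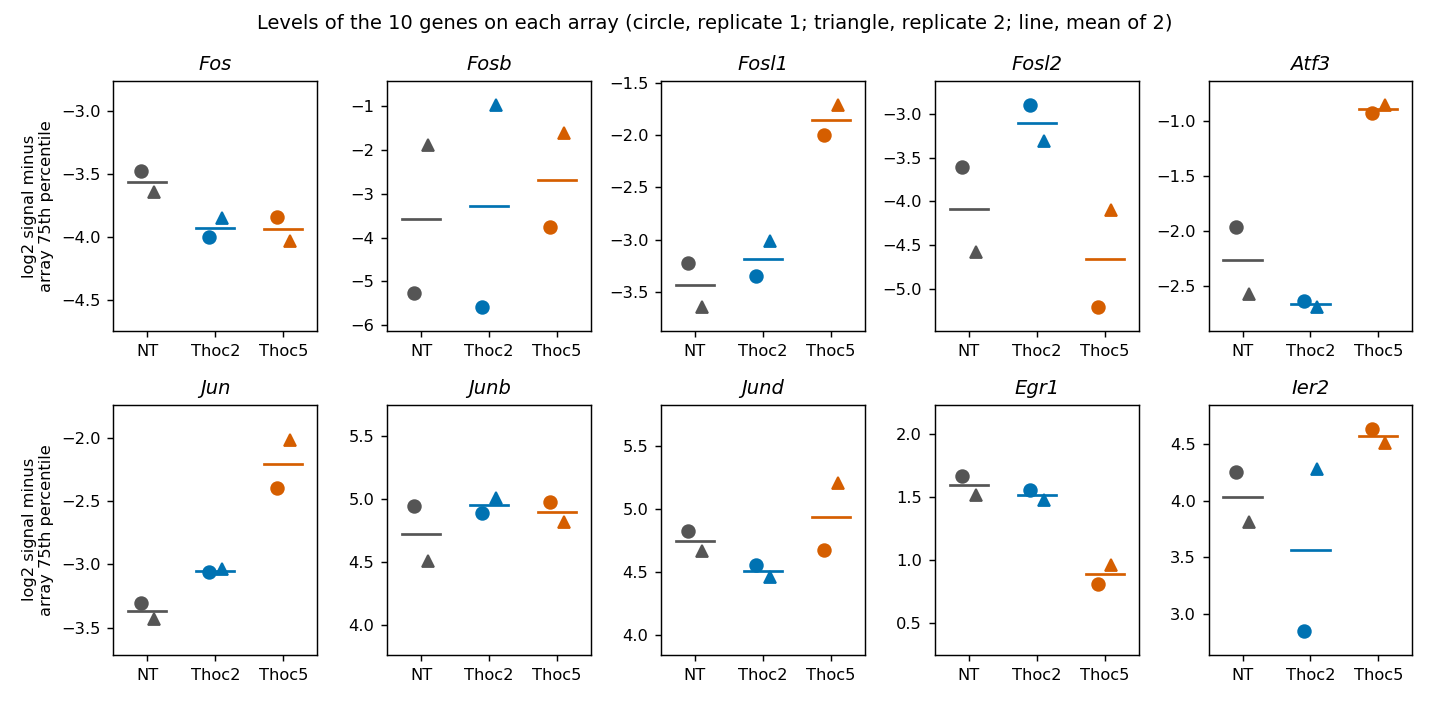
Level of each gene (log2 processed signal minus the array's 75th percentile) on each of the 6 arrays, by siRNA. Circles are replicate 1, triangles replicate 2 and lines the mean of 2. Fosl1, Atf3 and Jun are highest on the Thoc5 arrays and Egr1 lowest there, while the points of Fosb split by replicate.

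Fosl1 encodes Fra-1, a Fos family protein without the activation domain of Fos. Its probe lies on chromosome 19 from 5350302 to 5350361 in mm7, the mouse build that the file headers name. The level was -3.22 and -3.64 on the NT arrays, -3.35 and -3.01 on the Thoc2 arrays, and -2.0 and -1.72 on the Thoc5 arrays (replicates 1 and 2). The Thoc5 arrays were above all others, and the Thoc2 arrays overlapped those of NT. The log2 difference from NT was 1.57 ± 0.24 with Thoc5 siRNA and 0.25 ± 0.24 with Thoc2 siRNA (SE of the limma fit, 2 arrays per group, here and below). Of all genes, 258 (1.34%) were at least as far above NT after Thoc5 siRNA.

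Jun is the founding Jun protein and the usual partner of Fos. Its probe, printed at 10 places on each array, lies on chromosome 4 from 94441779 to 94441838 (mm7, minus strand). The level was -3.31 and -3.43 on the NT arrays, -3.06 and -3.04 on the Thoc2 arrays, and -2.39 and -2.02 on the Thoc5 arrays. The arrays of the 3 siRNAs did not overlap, with NT lowest and Thoc5 highest. Spots of 1 array differed by an SD of 0.056 to 0.11 on the log2 scale, which covers technical error within an array only. The difference from NT was 1.17 ± 0.19 with Thoc5 siRNA, a value that 626 genes (3.24%) reached, and 0.32 ± 0.19 with Thoc2 siRNA.

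Atf3 is induced by many stresses. Its probe lies on chromosome 1 from 190724174 to 190724233 (mm7, minus strand). The level was -1.97 and -2.57 on the NT arrays, -2.63 and -2.69 on the Thoc2 arrays, and -0.93 and -0.86 on the Thoc5 arrays. The Thoc2 arrays were below both NT arrays and the Thoc5 arrays above them. The difference from NT was 1.38 ± 0.24 with Thoc5 siRNA and -0.39 ± 0.24 with Thoc2 siRNA. The latter rested on NT replicate 1: without it the value was -0.094, and it was 0.28 with normexp background correction. After Thoc5 siRNA 399 genes (2.07%) lay as far above NT.

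Egr1, a zinc finger factor and no part of AP-1, lay on the other side of NT after Thoc5 siRNA. Its level was 1.67 and 1.52 on the NT arrays, 1.55 and 1.48 on the Thoc2 arrays, and 0.81 and 0.96 on the Thoc5 arrays. The Thoc5 arrays were below the other 4, and the Thoc2 arrays overlapped those of NT. The difference from NT was -0.71 ± 0.15 with Thoc5 siRNA, as far below NT as 2944 genes (15.2%), and -0.078 ± 0.15 with Thoc2 siRNA.

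Fos, the gene that gives its family its name, was measured by 10 spots per array of a probe on chromosome 12 from 83478431 to 83478490 (mm7). The level was -3.48 and -3.65 on the NT arrays, -4.01 and -3.86 on the Thoc2 arrays, and -3.84 and -4.03 on the Thoc5 arrays. Arrays of both knockdowns were below both NT arrays, by mean differences of -0.37 ± 0.16 each. Spots of 1 array had an SD of 0.077 to 0.20, and normexp background correction turned both differences (0.83 with Thoc2 and 0.67 with Thoc5 siRNA). Fosl1, of the same family, was higher with Thoc5 siRNA.

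Fosb, a further Fos protein, was set apart by replicate number and not by siRNA. Its level was -5.27, -5.58 and -3.77 on replicate 1 of NT, Thoc2 and Thoc5 siRNA, and -1.90, -0.99 and -1.63 on replicate 2. Replicate 2 exceeded replicate 1 by 3.37, 4.59 and 2.14, and since the spot on Thoc2 replicate 1 was not well above background, the 4.59 has no firm size. The slide did not follow this split: NT replicate 1 and Thoc2 replicate 2 shared a slide and differed by 4.28, with both spots well above background. Of 19025 genes with a value on every array, 57 were at least 2 higher on replicate 2 with all 3 siRNAs and 2 were so on replicate 1, a count made after Fosb had been seen. The difference from NT was 0.30 ± 2.03 with Thoc2 siRNA and 0.89 ± 2.03 with Thoc5 siRNA. With the replicate number as a block in the fit the SE of both was 0.67.

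Fosl2, which encodes Fra-2, had a dim probe, as did Fos, Fosl1 and Jun, and single arrays decided its values. Its level was -3.60 and -4.58 on the NT arrays, -2.90 and -3.30 on the Thoc2 arrays, and -5.21 and -4.10 on the Thoc5 arrays, and replicate 1 of Thoc5 siRNA was not well above background. The Thoc2 arrays were above both NT arrays, by 0.99 ± 0.53, and those of Thoc5 overlapped them (-0.57 ± 0.53). Without NT replicate 2 the Thoc2 value was 0.50 and without NT replicate 1 it was 1.48, and within the slide that held both groups it was 0.30. The Thoc5 value was -0.011 without Thoc5 replicate 1, -0.078 without NT replicate 1, -1.12 without Thoc5 replicate 2 and -1.05 without NT replicate 2, and 0.48 within the shared slide. With normexp background correction the Thoc5 value was 0.86. A second Fosl2 probe was well above background on 1 array of 6 and was left out.

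Junb and Jund, Jun proteins that can restrain growth in many cells, stayed within narrower limits. Junb stood at 4.95 and 4.51 on the NT arrays, 4.90 and 5.01 on the Thoc2 arrays, and 4.98 and 4.82 on the Thoc5 arrays, so the siRNAs overlapped. The differences from NT were 0.22 ± 0.21 and 0.17 ± 0.21. A dimmer Junb probe, whose target overlaps that of the brighter one, gave 0.0066 ± 0.15 for Thoc5 siRNA. Jund stood at 4.83 and 4.66 on the NT arrays, 4.55 and 4.46 on the Thoc2 arrays, and 4.67 and 5.21 on the Thoc5 arrays. The Thoc2 arrays were below both NT arrays (-0.24 ± 0.23) and the Thoc5 arrays overlapped them (0.19 ± 0.23). Thoc5 replicate 2 decided the latter, which was -0.075 without it, and normexp background correction gave -0.24.

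Ier2, a small nuclear protein of the immediate early response, had probes that disagreed. The brighter one read 4.25 and 3.81 on the NT arrays, 2.85 and 4.28 on the Thoc2 arrays, and 4.63 and 4.51 on the Thoc5 arrays. Its Thoc5 arrays were above all others, by 0.54 ± 0.52 over NT, and 0.32 without NT replicate 2. Its Thoc2 arrays straddled NT: the difference was -0.46 ± 0.52, and 0.25 without Thoc2 replicate 1. The dimmer probe gave -0.055 ± 0.33 for Thoc5 siRNA, with arrays that overlapped.

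**Figure D2:**
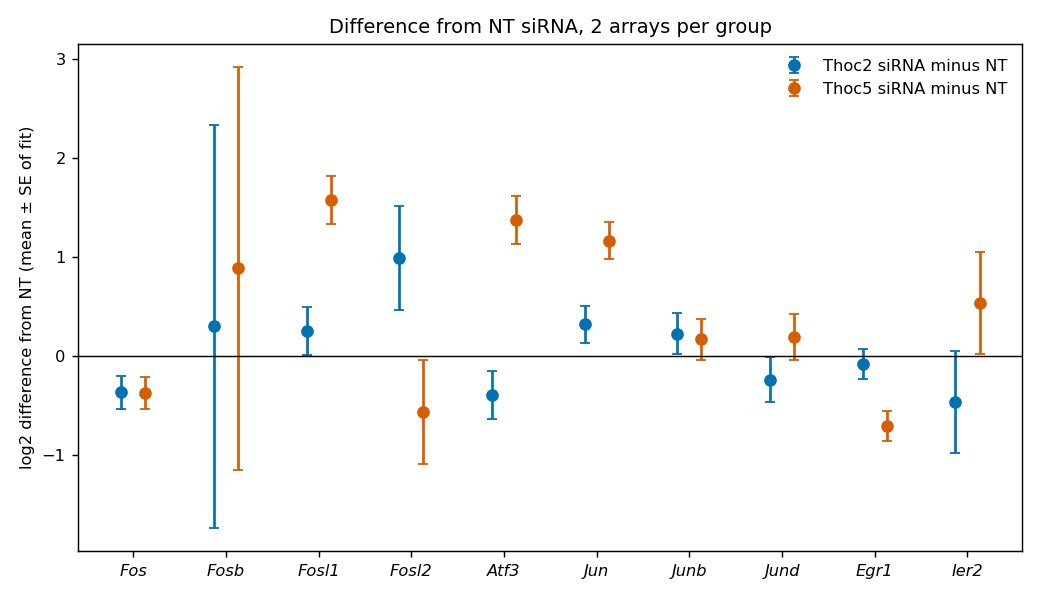
Log2 difference from NT of each gene with Thoc2 siRNA (blue) and Thoc5 siRNA (orange), with the SE of the limma fit as bars and 2 arrays per group. The Thoc5 values of Fosl1 (1.57), Atf3 (1.38) and Jun (1.17) are the highest with short bars, and Fosb has an SE of 2.03.

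After Thoc2 siRNA no member passed the test, which asked whether levels differed from NT beyond the spread between arrays. Their adjusted p-values ran from 0.393 to 0.955 (limma, Benjamini-Hochberg over all genes). Limma called 0 of 19304 genes (0%) in this comparison, while 2817 genes (14.6%) had an unadjusted p under 0.05, none of them members. Of the members 2 were higher without overlap (Fosl2, Jun) and 3 lower (Fos, Jund, Atf3), against 26.1% and 20.9% of all genes. At a log2 difference of 1 or more no member was higher or lower, and of all genes 10.4% and 3.57%. An intensity trend with robust variances called 4 genes (0.0207%), none of them members. Members lay above and below 0 in equal number, 5 each, with a median log2 difference of 0.073 beside 0.061 for all genes. The members' median took either sign when 1 array was left out, at -0.049 without NT replicate 1, -0.073 without NT replicate 2, 0.26 without Thoc2 replicate 1 and -0.12 without Thoc2 replicate 2.

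After Thoc5 siRNA 7 members lay above 0 and 3 below (Fos, Fosl2, Egr1), with a median of 0.36 beside -0.085 for all genes. Of these, 4 were higher without overlap (Fosl1, Jun, Atf3, Ier2) and 2 lower (Fos, Egr1), where 21.7% of all genes were higher and 31.2% lower in that way. At a log2 difference of 1 or more 3 members were higher and 0 lower, and of all genes 4.61% and 8.49%. Limma called 0 of 19305 genes (0%), and 3775 (19.6%) had an unadjusted p under 0.05. Requiring every array to be well above background gave 543 calls among 15056 genes (3.61%), with Fosl1, Jun and Atf3 among them (adjusted p 0.0414, 0.0438 and 0.0467). An intensity trend with robust variances gave 661 calls (3.42%), with Egr1 among them (0.0468). Since the list was chosen with this comparison known, nothing is read from these counts. The members' median was 0.089 without Thoc5 replicate 2 and 0.22 without NT replicate 2.

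**Figure D3:**
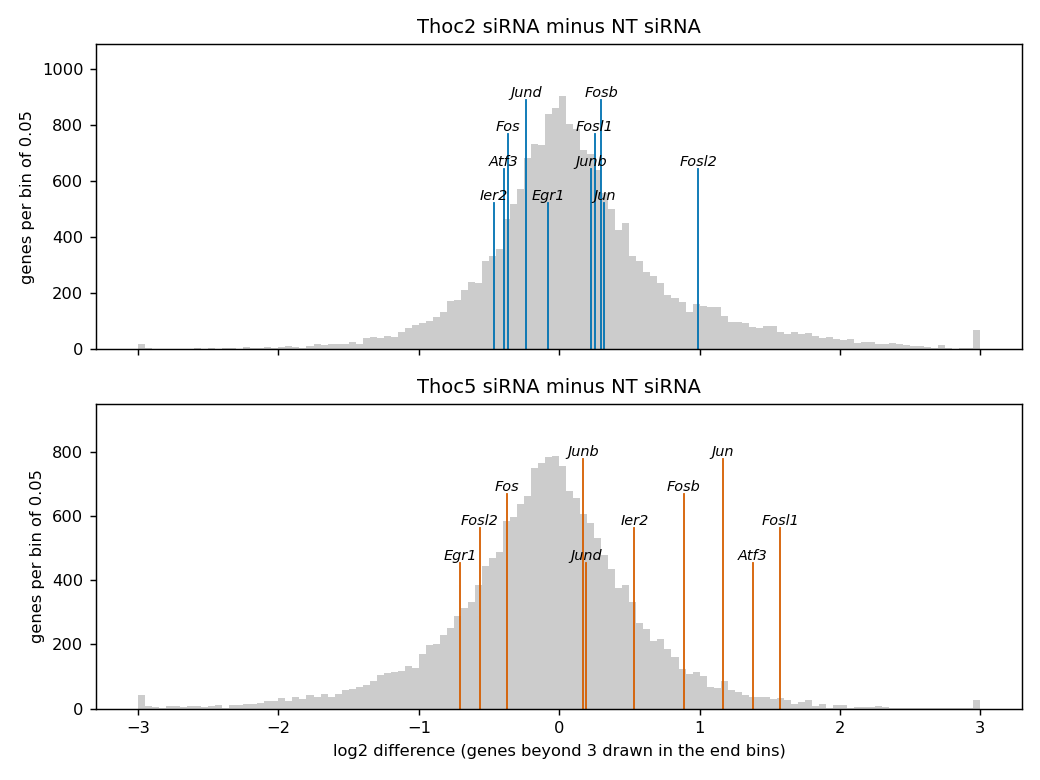
Histograms of the log2 difference from NT over all genes (grey) with the 10 members marked, for Thoc2 siRNA (top) and Thoc5 siRNA (bottom). With Thoc2 siRNA 9 members lie between -0.46 and 0.32 and Fosl2 at 0.99, and with Thoc5 siRNA Fosl1, Atf3 and Jun lie in the upper tail.

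Both knockdowns share the NT arrays, so their differences from NT are not independent. Set directly against each other, the Thoc5 arrays were above the Thoc2 arrays by 1.77 ± 0.24 for Atf3, 1.32 ± 0.24 for Fosl1, 1.00 ± 0.52 for Ier2, 0.84 ± 0.19 for Jun and 0.43 ± 0.23 for Jund, each without overlap. They were below by -1.56 ± 0.53 for Fosl2 and -0.63 ± 0.15 for Egr1. Of all genes 13.2% were higher and 32.6% lower without overlap in this comparison. At a log2 difference of 1 or more Atf3, Fosl1 and Ier2 were higher (2.11% of all genes) and Fosl2 lower (11.5%). The dimmer Ier2 probe gave -0.17, on the other side of 0, and the Fosl2 value, which includes a Thoc5 array not well above background, was -1.0 without that array. Fos (-0.0069 ± 0.16) and Junb (-0.054 ± 0.21) lay near 0. No gene passed in this comparison by limma (0% of 19304), and 1775 genes (9.19%) had an unadjusted p under 0.05. The members' median was 0.51 beside -0.13 for all genes, and 0.10 without Thoc2 replicate 1, 0.13 without Thoc5 replicate 2 and 0.82 without Thoc5 replicate 1. These values rest on the same Thoc5 arrays that guided the choice of genes. The Ier2 value was 0.29 without Thoc2 replicate 1 and 1.71 without Thoc2 replicate 2. The Jund value was 0.16 without Thoc5 replicate 2 and 0.70 without Thoc5 replicate 1.

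Slides allowed a comparison between arrays hybridised together. NT replicate 2 and Thoc5 replicate 2 shared a slide, and within it Fosl1 differed by 1.92, Atf3 by 1.71, Jun by 1.42, Ier2 by 0.69 and Egr1 by -0.56. NT replicate 1 and Thoc2 replicate 2 shared another, where Atf3 differed by -0.72, Fos by -0.37, Jun by 0.27 and Fosl1 by 0.21. Without the dim Thoc5 replicate 1 Fosl1 was at 1.71, Atf3 at 1.41 and Jun at 1.36 above NT, and Egr1 at -0.63, values of the comparison on which the genes were selected and thus no support for it.

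**Figure D4:**
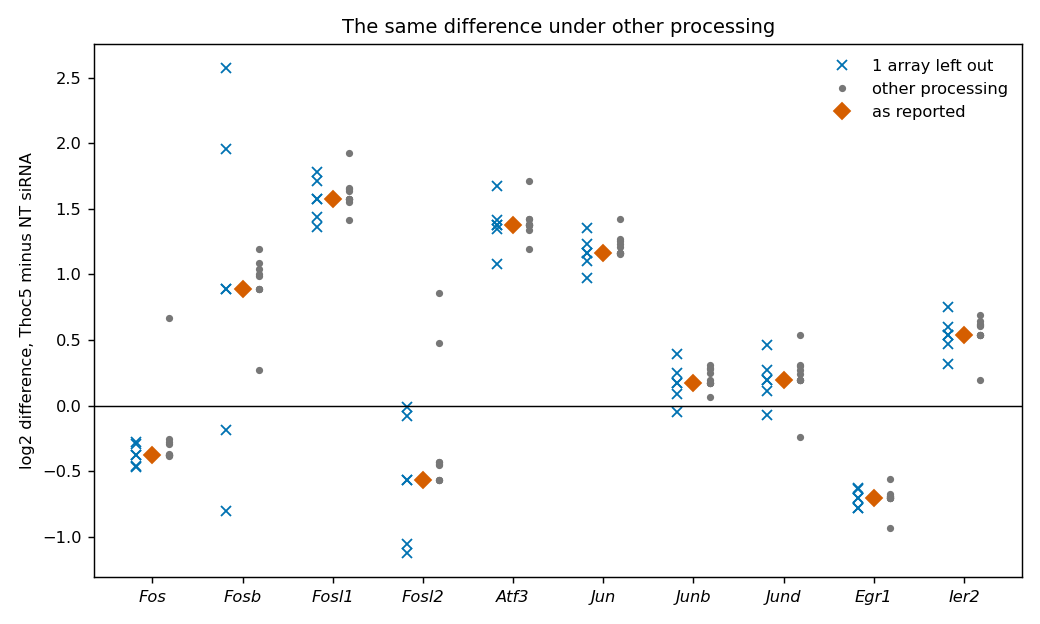
Log2 difference between Thoc5 and NT siRNA for each gene as reported (orange diamonds), with 1 array left out (blue crosses) and with other processing or within the shared slide (grey points). Fosl1 spans 1.36 to 1.92, Atf3 1.08 to 1.71, Jun 0.98 to 1.42 and Egr1 -0.93 to -0.56, while Fos, Fosb, Fosl2, Junb and Jund have values on both sides of 0.

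Across the 6 arrays the levels of Fosl1 and Jun correlated at 0.975, Fosl1 and Atf3 at 0.921 and Jun and Atf3 at 0.862, and Egr1 correlated with these 3 at -0.921, -0.903 and -0.874. These are descriptions over 6 arrays in which the Thoc5 pair sets both ends. The genes most like Fosl1 by Pearson correlation among 19025 were Slc25a42 (0.997), Arfgap2 (0.994) and Bmp1 (0.992). The genes most like Egr1 were Cops2 (0.993), Gramd3 (0.992) and Zdhhc21 (0.992).

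Other immediate early genes lay on both sides of NT. Of 29 listed genes 26 were measured. After Thoc5 siRNA 15 lay above 0 and 11 below (median 0.11), and after Thoc2 siRNA 16 and 10 (median 0.14). None passed the test in either comparison. Since 0% of all genes passed in both, this tells nothing about the list. After Thoc5 siRNA 12 were higher and 6 lower without overlap, beside 21.7% and 31.2% of all genes. After Thoc2 siRNA 12 were higher and 4 lower, beside 26.1% and 20.9%. Ccn1, a secreted matrix protein, had the highest Thoc5 value (1.56 ± 0.31) and stood at -0.34 and -0.96 on the NT arrays, 0.34 and 0.068 on the Thoc2 arrays, and 0.64 and 1.17 on the Thoc5 arrays. The highest Thoc2 value was that of Ccn2, a related matrix protein, at 0.96 ± 0.40.

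Ier3, a regulator of cell survival, was the lowest in both comparisons, at -1.38 ± 0.77 with Thoc2 siRNA and -1.47 ± 0.77 with Thoc5 siRNA. Its NT arrays stood far apart, at 0.92 and -1.30, and all 4 knockdown arrays lay between -1.82 and -1.40. Within the Egr family Egr2 overlapped NT after Thoc5 siRNA (-0.13 ± 0.42), Egr4 was lower without overlap (-0.36 ± 0.24), and Egr3 did not pass the filter. Egr2 and Egr4 were named after their values were seen, to set Egr1 beside its family.

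**Figure D5:**
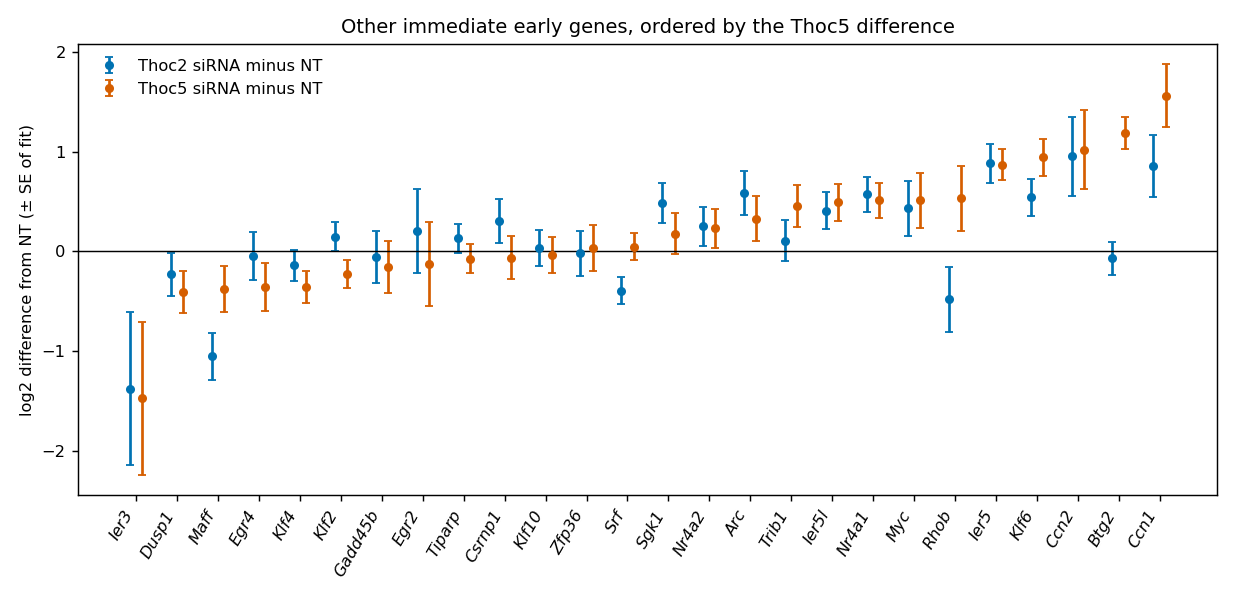
Log2 difference from NT of the 26 other measured immediate early genes with Thoc2 siRNA (blue) and Thoc5 siRNA (orange), ordered by the Thoc5 value, with the SE of the limma fit as bars. The order runs from Ier3 at -1.47 to Ccn1 at 1.56.

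Partners and inhibitors of these factors were measured for 17 of 17 listed genes, and none passed (0% of all genes did). After Thoc5 siRNA 6 lay above 0 and 11 below, with a median of -0.17. Jdp2, an AP-1 repressor that pairs with Jun, had the lowest value (-1.28 ± 0.18): its level was -0.96 and -1.30 on the NT arrays, -1.51 and -1.63 on the Thoc2 arrays, and -2.32 and -2.49 on the Thoc5 arrays, without overlap between any of the 3. Mafk, a small Maf protein, had the highest (0.64 ± 0.29). After Thoc2 siRNA the median was -0.024, with Batf2 highest (1.10 ± 0.34) and Maff lowest (-1.05 ± 0.23).

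Genes upstream, the kinases of the ERK, JNK and p38 routes and serum response factor with its partners, had medians of 0.044 after Thoc5 siRNA and 0.075 after Thoc2 siRNA. Of 22 listed 19 were measured and none passed (0% of all genes did). Rps6ka1, a kinase below ERK, was highest in both (0.57 ± 0.23 and 0.60 ± 0.23). Mapk3, which encodes ERK1, was lowest after Thoc5 siRNA (-0.40 ± 0.17). Mapk8, which encodes JNK1, a kinase of Jun, was lowest after Thoc2 siRNA (-0.82 ± 0.52), with -2.04 on replicate 1 and -0.55 on replicate 2. Proteins that bind AU-rich elements and control decay of such mRNAs had medians of -0.0063 and 0.026. Of these 8 of 8 were measured, and again none passed where 0% of all genes did. Among them Zfp36l2 was highest in both comparisons (0.29 ± 0.63 and 0.66 ± 0.63 for Thoc5 and Thoc2 siRNA) and Elavl1 lowest (-0.24 ± 0.14 and -0.055 ± 0.14).

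Among 21 genes known as AP-1 targets 15 were measured and none passed (0% of all genes did). After Thoc5 siRNA 7 lay above 0 and 8 below (median -0.19), and after Thoc2 siRNA 9 and 6 (median 0.12). Plaur, the urokinase receptor, was highest after Thoc5 siRNA (1.12 ± 0.22), with 2.61 and 2.79 on the NT arrays, 3.54 and 3.18 on the Thoc2 arrays, and 3.63 and 4.0 on the Thoc5 arrays. Vegfa, a vascular growth factor, was lowest after both Thoc5 siRNA (-0.88 ± 0.25) and Thoc2 siRNA (-0.66 ± 0.25). Cd44, a hyaluronan receptor, was highest after Thoc2 siRNA (1.55 ± 0.98), with NT arrays at -5.02 and -7.89.

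No marker of another cell type passed the test, which 0% of all genes passed, so it could not tell whether these markers changed. For trophoblast, the signal of the 9 measured markers, each divided by its array's 75th percentile and summed, was 20.7 to 24.0 on the Thoc5 arrays, 15.3 to 15.9 on the NT arrays and 11.3 to 11.5 on the Thoc2 arrays. These sums are made up mostly of the bright probes of Krt8, Krt18 and Tfap2c. After Thoc5 siRNA 7 of the 9 lay above 0, with 6 higher and 1 lower without overlap (21.7% and 31.2% of all genes). After Thoc2 siRNA 5 lay above 0, with 4 higher and 3 lower (26.1% and 20.9%). Gata3 and Cdx2 lay further above NT with Thoc2 siRNA (2.39 and 0.97) than with Thoc5 siRNA (1.85 and 0.52), while Krt8 (-0.34 and 0.68) and Krt18 (-0.54 and 0.65) lay below NT with Thoc2 siRNA and above it with Thoc5 siRNA. Elf5 did not pass the filter. Summed markers of primitive endoderm were 19.3 to 35.6 with Thoc5, 11.5 to 23.6 with NT and 20.7 to 22.8 with Thoc2 siRNA. Those of fibroblasts were 13.7 to 15.0, 11.8 to 15.3 and 12.9 to 13.9 in the same order. The bright probe of Acta2 makes up most of the fibroblast sum, and that of Sparc most of the endoderm sum. With NT and Thoc5 siRNA replicate 1 had the higher endoderm sum. Of 10 measured fibroblast markers 1 was higher and 3 lower without overlap after Thoc5 siRNA, and 3 and 3 after Thoc2 siRNA. Of 9 endoderm markers 1 was higher and 0 lower without overlap after each siRNA. The shares of all genes are those given for trophoblast. Pluripotency markers summed to 825 to 1026 with Thoc5, 1037 to 1060 with NT and 870 to 898 with Thoc2 siRNA. After Thoc5 siRNA all 9 measured lay below 0, 7 without overlap (31.2% of all genes; median -0.27), and after Thoc2 siRNA 8 of 9 did, 6 without overlap (20.9%; median -0.30). The part of these cell types in the levels of Fosl1, Atf3, Jun and Egr1 was not tested.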

How the data were processed

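The deposited scanner files hold a processed signal intensity per spot, background-subtracted and detrended within each array, with surrogate values allowed for spots near background, per the file headers, which name Feature Extraction 9.5.3.1; the submitters' processing notes name 11.0. A deposited value table holds log2 values with shared quantiles and a Spearman correlation of 1 with the processed signal; how the authors made it is not given in the sources used here, and it served as an alternative. Each array's 75th percentile over non-control spots was subtracted from its log2 processed signals to give levels. Control and outlier spots were left out and spots of a probe averaged. A probe was kept if well above background (at least 0.5 of its spots) on every array of at least 1 siRNA. The brightest kept probe stood for its gene, which gave 19305 genes, named through RefSeq's GRCm38.p6 table; 280 lacked a value on an array.

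Limma 3.58.1 in R 4.3.3 (lmFit, eBayes) was fitted to all 6 arrays with 3 residual and 1.49 prior degrees of freedom. P-values are two-sided and adjusted by Benjamini-Hochberg over all genes, with a threshold of 0.05; with 2 arrays in each group the smallest exact permutation p is 0.333. The fit was run on simulated data with independent noise, to check that planted changes were recovered on average and few unchanged genes were called. That noise held no slide, scan day or replicate effects. Members and lists were chosen with earlier results of these data known. The named genes are all members, the siRNA targets, the highest and lowest gene of each list against NT, and the 3 genes most like the members with the largest rise and fall. Motifs were searched with Python 3.11.15. Replicate numbers were checked for pairing. Deviations of same-numbered arrays correlated with both signs, so no pairing was used in the reported fit. Alternatives were normalization, background correction, probe filter, variance model, slide, replicate block, probe choice and leaving out each array.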

Additional observations from a re-analysis of the deposited data

Results flagged for a closer look

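Atf3 lay on opposite sides of NT in the knockdowns: both Thoc2 arrays were below both NT arrays and both Thoc5 arrays above them. The difference between Thoc5 and Thoc2 siRNA was 1.77 on the log2 scale, with an adjusted p of 0.411 (limma, over all genes), and from 0.287 to 1 under the alternatives, so it did not pass. The value below NT after Thoc2 siRNA was -0.094 without NT replicate 1. With normexp background correction Atf3 was above NT in both knockdowns, by 0.28 with Thoc2 and 1.195 with Thoc5 siRNA. The difference between the knockdowns was then 0.91. The Thoc5 arrays also guided the choice of this gene.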

How the results depend on the processing

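After Thoc5 siRNA the higher levels of Fosl1, Atf3 and Jun and the lower level of Egr1 kept their direction in all 17 settings. These include the reported fit, and the choice of genes in part fixes the outcome. The probe filters, the variance model, the replicate block and leaving out a Thoc2 array left these differences unchanged. Such settings could not turn them. Calls did not hold still: Thoc5 siRNA against NT gave 0 genes as reported, 543 when every array had to be well above background and 661 with an intensity trend and robust variances, which gave 4 genes for Thoc2 siRNA. Requiring all arrays left 15056 genes, of which 3852 had an unadjusted limma p under 0.05, beside 3775 as reported. Why the calls differed between settings was not tested. With normexp background correction the median of the members was 0.56 (Thoc2 against NT), 0.76 (Thoc5 against NT) and 0.12 (Thoc5 against Thoc2), while the median of all genes against NT was 0.29 and 0.24. With it the Thoc5 minus Thoc2 difference was 0.40 for Fosl1, 0.32 for Jun, 0.91 for Atf3 and -0.71 for Egr1. As reported these were 1.32, 0.84, 1.77 and -0.63. Thoc5 against Thoc2 gave a member median of 0.79 with quantile normalization, 0.80 with the deposited table and 0.21 with every probe as its own row. With 1 array left out the medians ran from -0.12 to 0.26, 0.089 to 0.47 and 0.10 to 0.82.

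Signs turned for Thoc2 siRNA against NT in Fosb (-0.31 quantile, -0.27 deposited table, -2.0 to 2.60 with 1 array left out), Fosl1 (-0.069 quantile, -0.077 deposited table), Fos (0.83 normexp), Atf3 (0.28 normexp) and Ier2 (-1.18 to 0.25 with 1 array left out). For Thoc5 siRNA against NT they turned in Fos (0.67 normexp), Fosl2 (0.86 normexp, 0.48 within the shared slide) and Junb (-0.048 without NT replicate 2). They turned there also in Fosb (-0.80 without NT replicate 1, -0.18 without Thoc5 replicate 2) and Jund (-0.24 normexp, -0.075 without Thoc5 replicate 2). For Thoc5 against Thoc2 they turned in Fos (0.52 quantile, 0.30 cyclic loess, 0.55 deposited table, 0.011 slide as a random block, -0.10 to 0.090 with 1 array left out). They also turned in Junb (0.0060 quantile, 0.016 deposited table, 0.010 normexp, 0.0055 slide block, -0.14 to 0.027 with 1 array left out) and Fosb (-0.21 normexp, -1.71 to 2.88 with 1 array left out). The cause was not tested.

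Replicate numbers gave no pairing shared by all siRNAs. Deviations of same-numbered arrays correlated at -0.20 (NT and Thoc2), 0.14 (NT and Thoc5) and 0.22 (Thoc2 and Thoc5). Fosb and some other genes did split by replicate number, as given above. With the replicate block limma called 0 genes in each comparison (2775, 3276 and 1520 at an unadjusted p under 0.05). A crossed pairing of Thoc2 and NT arrays, added after seeing the data, called 0 (2755 unadjusted). The 2 arrays per siRNA and dim probes such as those of Fos, Fosl1, Fosl2 and Jun limit what could be told. So does the 56.7% of spots well above background on Thoc5 replicate 1.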
